A study of Mus musculus with 78 samples.

Results

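The genes described here copy DNA and supply its building blocks. They were chosen by name, from a list of 41 symbols: 10 that license origins (Orc1, Orc2, Orc6, Cdt1 and Mcm2 to Mcm7), 6 that switch the helicase on (Mcm10, Cdc45 and Gins1 to Gins4), the subunits of DNA polymerases alpha, delta and epsilon with primase, the sliding clamp Pcna and its loader (Rfc1 to Rfc5), the single-strand binding proteins (Rpa1 to Rpa3), the flap nuclease Fen1, the ligase Lig1, the uracil glycosylase Ung, and the deoxynucleotide enzymes Rrm1, Rrm2, Tyms and Tk1. Of the 41 symbols, 40 were found among the 14695 genes of the count table, and all 40 passed the filter on low counts in every fit. The remaining one, Prim1, was not found by that name and is not analysed here.

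The libraries came from primary CD8+ T cells of spleen and lymph node from C57BL/6J mice, on day 3 of activation, after 3 h of exposure. In the nutrient experiment Control cells stayed in full medium and the others went into medium that lacked 1 of these: arginine, glucose, methionine, glutamine, or the branched-chain amino acids as a group (BCAA). In the drug experiment cells received the solvent DMSO, halofuginone (which inhibits the enzyme that charges proline tRNA), Torin1 (which inhibits mTOR kinase) or 4EGI-1 (which blocks binding of eIF4E to eIF4G), and the labels give no dose. Total RNA and RNA pooled from the polysome fractions 9 to 13 of a 15% to 45% sucrose gradient were sequenced from lysates of 20000000 cells, with 3 libraries in each of 12 nutrient and 8 drug groups. The labels call the nutrient libraries total RNA and the drug libraries polyA RNA, and the 2 experiments were never compared with each other. The labels name no genetic change in any group. A further 18 monosome libraries are not analysed here.

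Before a chromosome can be copied, the origin recognition complex and Cdt1 load rings of Mcm2 to Mcm7 onto DNA, and Cdc45 and the GINS complex then turn each ring into a moving helicase. Polymerase alpha with primase starts every new strand, replication factor C loads the Pcna clamp, and polymerases delta and epsilon extend the strands, while Fen1 and Lig1 join the pieces of the lagging strand. Ribonucleotide reductase and thymidylate synthase make the deoxynucleotides, and Ung removes uracil that has entered DNA. Activated CD8+ T cells divide rapidly, and many of these genes are textbook targets of the E2F transcription factors that open S phase.

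The E2F letters can be read in the DNA just upstream of some of these genes. RefSeq's promoter table (build GRCm38.p6) held 39 promoters of 33 of the 40 genes. Gins1, Gins2, Gins4, Rfc2, Prim2, Mcm4 and Pole had no entry. The 250 bases before each start were searched on both strands for TTTCCCGC, TTTCGCGC, TTTGCCGC and TTTGGCGC, forms of the E2F binding motif. The letters were present in 7 of the 39 promoters (17.9%), those of Gins3, Mcm5, Mcm6, Mcm7, Orc1, Pola1 and Rfc3, and in 611 of all 32851 promoters of the table (1.86%). CCAAT, the letters of the CCAAT box, stood in 22 of the 39 (56.4%) and in 11120 of all promoters (33.8%). These shares are descriptions of the letters without a test. The sequences that follow are the 4 promoters with E2F letters whose genes changed most in total RNA over the deprivations, 5′ to 3′ along the gene, with the E2F letters in capitals. In Mcm6 and Mcm5 matches on opposite strands overlap and make a longer run of capitals.
Orc1 (chr4:108579204-108579453, plus strand): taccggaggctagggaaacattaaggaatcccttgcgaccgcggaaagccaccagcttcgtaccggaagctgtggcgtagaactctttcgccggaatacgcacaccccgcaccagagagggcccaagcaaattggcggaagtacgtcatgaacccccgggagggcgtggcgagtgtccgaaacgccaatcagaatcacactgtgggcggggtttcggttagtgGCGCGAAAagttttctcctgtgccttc
Mcm6 (chr1:128359706-128359955, minus strand): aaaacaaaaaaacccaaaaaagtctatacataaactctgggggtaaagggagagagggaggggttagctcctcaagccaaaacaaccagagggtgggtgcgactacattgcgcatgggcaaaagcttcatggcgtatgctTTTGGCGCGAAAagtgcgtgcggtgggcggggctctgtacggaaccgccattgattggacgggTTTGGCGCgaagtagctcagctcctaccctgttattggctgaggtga
Pola1 (chrX:93632156-93632405, minus strand): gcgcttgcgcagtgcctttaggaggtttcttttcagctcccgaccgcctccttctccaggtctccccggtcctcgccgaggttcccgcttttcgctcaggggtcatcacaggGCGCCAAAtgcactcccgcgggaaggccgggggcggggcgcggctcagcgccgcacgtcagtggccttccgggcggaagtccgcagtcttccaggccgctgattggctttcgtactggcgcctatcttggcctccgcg
Mcm5 (chr8:75109259-75109508, plus strand): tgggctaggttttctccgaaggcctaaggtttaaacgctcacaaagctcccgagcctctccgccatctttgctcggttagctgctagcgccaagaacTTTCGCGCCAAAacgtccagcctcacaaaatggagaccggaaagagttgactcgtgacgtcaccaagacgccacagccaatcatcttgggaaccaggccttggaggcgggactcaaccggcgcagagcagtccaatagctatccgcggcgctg

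In total RNA these 4 genes did not all move the same way. In the 5 media without arginine, BCAA, glucose, glutamine and methionine, in that order, the log2 fold changes against Control were -0.43, -0.39, -0.58, -0.38 and -0.63 for Orc1, which opens origin licensing, -0.24, -0.34, -0.07, -0.14 and -0.55 for the helicase subunit Mcm6, -0.07, 0.10, 0.60, 0.38 and 0.06 for the polymerase alpha catalytic subunit Pola1 and -0.18, -0.13, 0.22, 0.33 and -0.24 for the helicase subunit Mcm5. Orc1 was called lower in all 5, and Pola1 was called higher without glucose and without glutamine only.

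The nutrient libraries held 15144663 to 30637485 counts each in total RNA and 29917770 to 54272886 in polysome RNA. The drug libraries held 17506526 to 23099949 and 17846266 to 24929556. The 6 measured CD8 T cell markers (Cd3d, Cd3e, Cd3g, Cd8a, Cd8b1 and Trac) together held 892 to 1178 CPM (counts per 1000000, defined in the next paragraph) in nutrient total RNA and 1762 to 2091 in drug total RNA. Markers of other cells were low: in the total RNA libraries of either experiment Foxp3 reached at most 2.76 CPM, the B cell genes Cd79a and Cd79b together 10.6 and the myeloid gene Cd68 12.7, while Cd4, Ms4a1, Lyz2, Csf1r, Itgam, Adgre1 and the listed NK and erythroid markers were not analysed here. Among the arginine-free total RNA libraries, replicate 2 stood apart, with 15144663 counts and 4.98% of them in mitochondrial ribosomal RNA. Control replicate 1 was the highest of the 3 Control libraries for 28 of the 40 genes in total RNA and for 24 in polysome RNA. Other libraries were likewise the highest of their 3 for most of the genes, in total RNA arginine-free replicate 3 (31 of 40), 4EGI-1 replicate 4 (30) and halofuginone replicate 4 (30), and in polysome RNA BCAA-free replicate 1 (30). Glucose-free replicate 1 was so too, for 21 of 40 in total RNA and 24 in polysome RNA. Over all genes, methionine-free total RNA replicate 1 differed more from its other two replicates than these did from each other. Rrm1, the large subunit of ribonucleotide reductase, stood at 222, 124 and 135 CPM in the Control total RNA libraries.

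A level is a gene's count divided by its library's total and TMM factor, per 1000000 (CPM), changes are log2 fold changes ± the standard error of the fit, and a gene is called higher or lower where the quasi-likelihood F test of edgeR gave a Benjamini-Hochberg adjusted p under 0.05 over all genes tested. Nothing in the labels says that the 3 libraries of a group came from separate cultures or animals. The p-values refer to the spread among libraries within groups, estimated over all groups of a fit together. That spread may be technical. In bulk RNA, fewer cells in S phase and less RNA of a gene per cell cannot be told apart, and the scaling removes any change that all genes share. Values are less certain for genes that overlap a neighbour, because the strand setting of the counting is not given in the sources used here. These are Orc1, Orc2, Mcm7, Cdc45, Gins2, Pole2, Rfc4, Rpa1, Fen1, Lig1, Ung and Tk1. Pcna and Tyms have named pseudogenes, whose counting was not checked, so their values are less certain too.

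In total RNA more of the genes fell than rose without methionine and BCAA. Without arginine only 3 were called, all lower, a count that leaving out 1 library moved between 1 and 8. Without glucose and glutamine leaving out 1 library could turn which count was the larger. Without methionine 2 of the 40 were higher and 17 lower, against 19.5% and 15.7% of all genes tested. Without BCAA 2 were higher and 13 lower (16.4% and 13.6% of all genes). Without arginine 0 were higher and 3 lower (5.1% and 4.14% of all genes), with 1 higher and 9 lower at an unadjusted p under 0.05 in edgeR and 0 higher and 4 lower by DESeq2. Without glucose the split was nearly even, 8 higher and 9 lower (21.8% and 19% of all genes), and without glutamine it was 8 higher and 5 lower (20.4% and 18.6%). Read against those shares, the falls without methionine and BCAA were the counts farthest above the background, while the counts without glucose and glutamine lay near it. The 8 higher without glucose became 4 with glucose-free replicate 1 or Control replicate 2 or Control replicate 3 left out, 5 with glucose-free replicate 2 left out and 12 with Control replicate 1 left out. The 9 lower were 7 to 9 in the same fits. The 8 higher without glutamine became 4 with Control replicate 2 left out and 5 with Control replicate 3 or glutamine-free replicate 3 left out, and the 5 lower without glutamine became 3 with Control replicate 1 or glutamine-free replicate 2 left out. The latter were 7 without glutamine-free replicate 1, where 6 were higher. The median change of the 40 genes was -0.17 without methionine, -0.11 without BCAA, -0.07 without arginine, -0.00 without glucose and 0.01 without glutamine, where the median of all genes lay between -0.01 and 0.02. The 5 comparisons share the same 3 Control libraries. The arginine-free count of 3 was 1 without Control replicate 1 or either of arginine-free replicates 1 and 2, and 8 without arginine-free replicate 3.

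**Figure D1:**
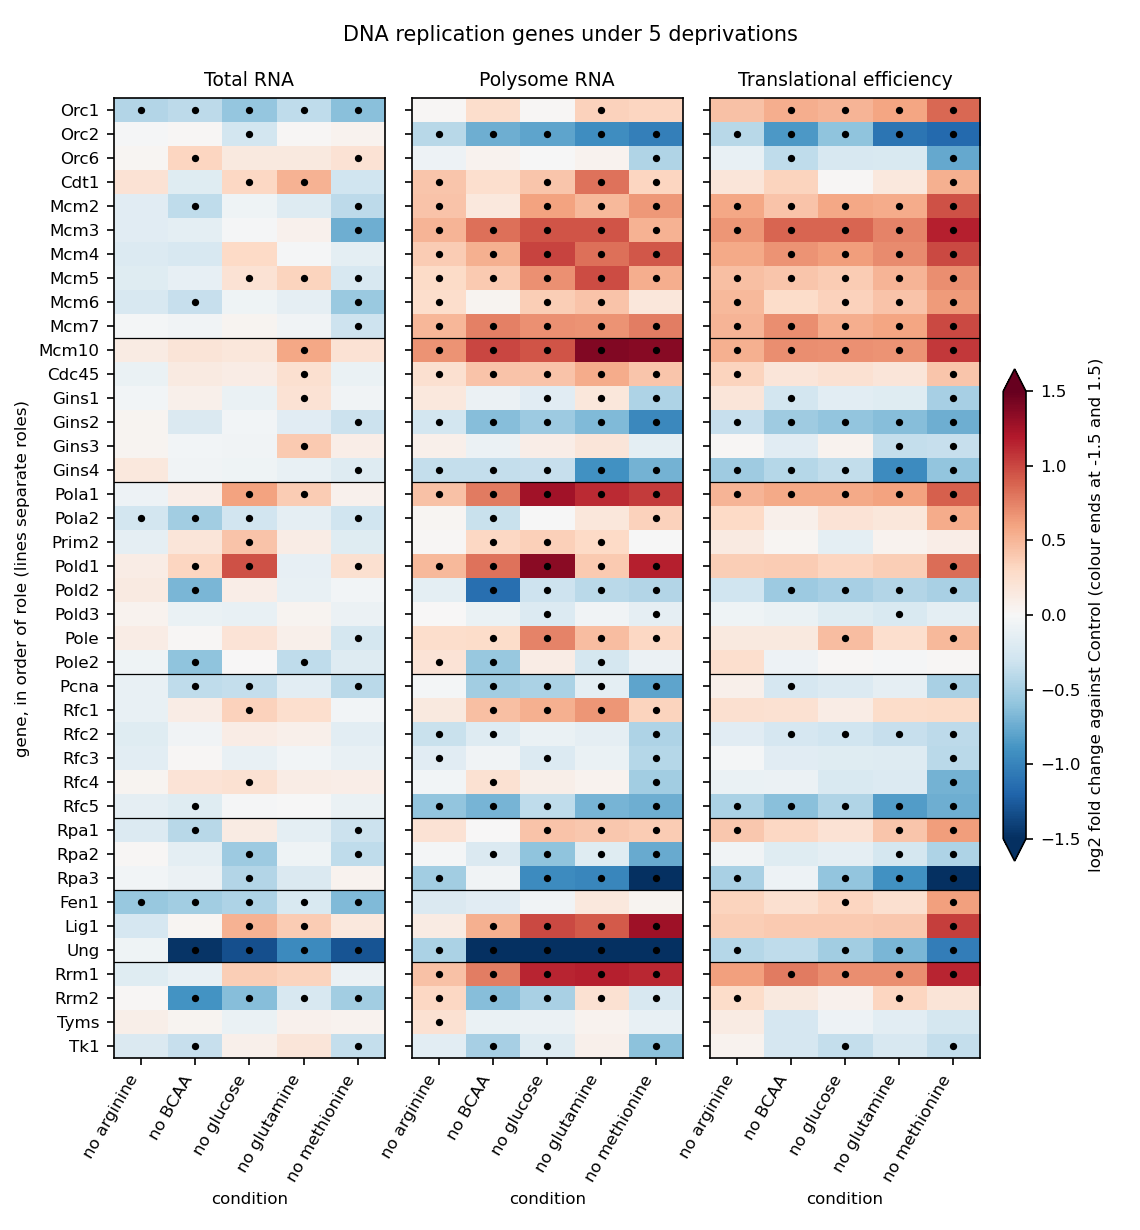
Log2 fold change of 40 replication and nucleotide supply genes (rows, ordered by role) against Control in the 5 nutrient deprivations (columns), in total RNA, in polysome RNA and in translational efficiency, each from 3 libraries per group. Colour gives the log2 change and dots mark genes called by edgeR at an adjusted p under 0.05. In translational efficiency the Mcm2 to Mcm7 rows are on the higher side in all 5 columns, while the Orc2, Rfc5, Gins2 and Gins4 rows are on the lower side.

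On polysomes more of the genes moved, in both directions, as did more genes overall. The numbers higher and lower were 15 and 8 without arginine (19% and 21.6% of all genes), 14 and 13 without BCAA (28.7% and 27.4%) and 17 and 14 without glucose (29.6% and 29.4%). They were 20 and 10 without glutamine (32.2% and 32.4%) and 16 and 17 without methionine (34.3% and 34.7%). In polysome RNA 9 genes were higher in all 5 media, 5 were lower in all 5, and 2 were called in none. Without arginine the count of 23 was 12 (5 higher, 7 lower) without arginine-free replicate 1 and 14 without Control replicate 2. The 15 higher there became 5 with arginine-free replicate 1 left out and 8 with Control replicate 2 or Control replicate 3 left out.

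Translational efficiency (TE), the ratio of polysome to total RNA in a deprivation against the same ratio in Control, was called in both directions. The numbers with higher and lower TE were 10 and 6 without arginine (6.72% and 9.81% of all genes), 9 and 9 without BCAA (8.03% and 18.9%), 12 and 9 without glucose (8.84% and 16.9%), 12 and 11 without glutamine (9.98% and 25.2%) and 18 and 16 without methionine (19.2% and 29.9%). The count of higher genes was above the background share in every medium, and 6 genes (Mcm2, Mcm3, Mcm5, Mcm7, Mcm10 and Pola1) were higher in all 5. Orc2, Rfc5, Gins2 and Gins4 were lower in all 5, and 4 genes (Pole2, Prim2, Rfc1 and Tyms) were called in none. These lists are from the fit that did not keep the 2 libraries of a lysate together. Tyms was called without methionine when methionine-free replicate 1 (-0.33, adjusted p = 0.0141) was left out. The scaling of the libraries shifts this balance. The entries called ribosomal RNA here are a set of names that also includes some other non-coding RNAs. Leaving these ribosomal RNA entries out of the scaling moved the median TE of all genes by up to 0.162 (glutamine-free medium). The splits then were 15 higher and 3 lower without arginine, 14 higher and 4 lower without BCAA, 14 higher and 6 lower without glucose, 17 higher and 6 lower without glutamine and 19 and 14 without methionine. Over all genes the shares moved the same way, to 10.7% and 6.82%, 14% and 9.02%, 14.8% and 9.85%, 17.4% and 14.5%, and 24.8% and 24.1% higher and lower in that order. With RLE size factors the splits of the 40 were 10 and 4, 10 and 6, 12 and 6, 17 and 7, and 19 and 15, in the same order, beside 6.94% and 9.34%, 10.3% and 13.6%, 12.3% and 11.8%, 15.8% and 16.2%, and 22.6% and 26.2% of all genes. The same genes were called higher under all 3 scalings in 10, 9, 12, 12 and 18 cases and lower in 3, 4, 6, 6 and 14.

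The TE calls without arginine rested on arginine-free replicate 1 in the fit without a lysate block, as were all fits that left out a library. With that replicate left out 1 call was made, for Gins4, in place of 16. Mcm3 was then 0.51, adjusted p = 0.0873 and Orc2 -0.40, adjusted p = 0.0706. The count was 6 without arginine-free replicate 2 and 9 without Control replicate 2 or Control replicate 3. With each lysate's total and polysome libraries kept together as a block, 25 genes were called without arginine (18 higher, 7 lower). The block gave 14 higher and 10 lower without BCAA, 14 and 10 without glucose, 16 and 14 without glutamine and 19 and 17 without methionine. Calls of TE and of polysome over total RNA made without the block were all kept with it (169 kept, 0 lost). Without glucose the 21 calls were 9 without glucose-free replicate 1, and without BCAA the 18 calls were 11 without BCAA-free replicate 1 and 11 without Control replicate 3. The 10 higher without arginine became 0 with arginine-free replicate 1 left out, 3 with arginine-free replicate 2 left out, 5 with Control replicate 3 left out and 6 with Control replicate 2 left out, and the 6 lower without arginine became 1 with arginine-free replicate 1 left out and 3 with Control replicate 2 or arginine-free replicate 2 left out. The 9 higher without BCAA became 5 with BCAA-free replicate 1 or Control replicate 3 left out. The 12 higher without glucose became 4 with glucose-free replicate 1 left out and 6 with glucose-free replicate 2 or Control replicate 3 left out, and the 9 lower without glucose became 5 with glucose-free replicate 1 left out.

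The helicase subunits Mcm2 to Mcm7 had a higher TE in nearly every medium. The log2 ratio of polysome to total RNA for Mcm3 was -0.47, -0.50 and -0.42 in the 3 Control lysates and 0.57, 0.76 and 0.77 in the methionine-free ones. It was 0.46, 0.32 and -0.22 without arginine, 0.51, 0.40 and 0.31 without BCAA, 0.54, 0.39 and 0.26 without glucose and 0.23, 0.47 and 0.12 without glutamine. All 15 deprived lysates lay above all 3 Control lysates, and arginine-free replicate 3 was the lowest of them. The TE of Mcm3 was higher by 0.66 ± 0.16, 0.87 ± 0.16, 0.87 ± 0.16, 0.74 ± 0.16 and 1.17 ± 0.16 in the media lacking arginine, BCAA, glucose, glutamine and methionine (adjusted p = 5.1e-07 in the last). In the same order the TE of Mcm7 was higher by 0.51, 0.70, 0.55, 0.59 and 0.99, that of Mcm2 by 0.58, 0.43, 0.58, 0.55 and 0.96 and that of Mcm5 by 0.45, 0.41, 0.39, 0.50 and 0.70. Mcm4 was higher in 4 media (0.67, 0.63, 0.71 and 0.99) and stood at 0.57 without arginine. Mcm6 was higher in 4 (0.49, 0.34, 0.42 and 0.64) and stood at 0.27 without BCAA. The loader Cdt1 was called in TE only without methionine (0.53 ± 0.19), a call lost without Control replicate 2 (0.39, adjusted p = 0.112), methionine-free replicate 2 (0.46, adjusted p = 0.0665) and methionine-free replicate 3 (0.48, adjusted p = 0.0766). In the arginine-free medium the TE calls lost were Mcm2 (0.48), Mcm5 (0.33), Mcm6 (0.41), Mcm7 (0.39) and Mcm3 (0.51) without arginine-free replicate 1, Mcm5 (0.41) and Mcm6 (0.41) without arginine-free replicate 2, and Mcm5 (0.44) without Control replicate 3. In the BCAA-free medium the TE calls lost were Mcm2 (0.42) and Mcm5 (0.38) without BCAA-free replicate 1, Mcm2 (0.38) without Control replicate 2, Mcm2 (0.42) without BCAA-free replicate 2, Mcm2 (0.46) and Mcm5 (0.40) without Control replicate 3, and Mcm2 (0.44) without BCAA-free replicate 3. In the glucose-free medium the TE calls lost were Mcm5 (0.30), Mcm4 (0.57) and Mcm6 (0.32) without glucose-free replicate 1, Mcm5 (0.37) and Mcm6 (0.34) without Control replicate 2, Mcm5 (0.41), Mcm4 (0.64) and Mcm6 (0.32) without glucose-free replicate 2, and Mcm5 (0.37), Mcm4 (0.62) and Mcm6 (0.32) without Control replicate 3. The glutamine-free TE call of Mcm6 was lost without glutamine-free replicate 2 (0.37). Under each of the 3 scalings at least 5 of the 10 licensing genes had a higher TE in every medium.

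**Figure D2:**
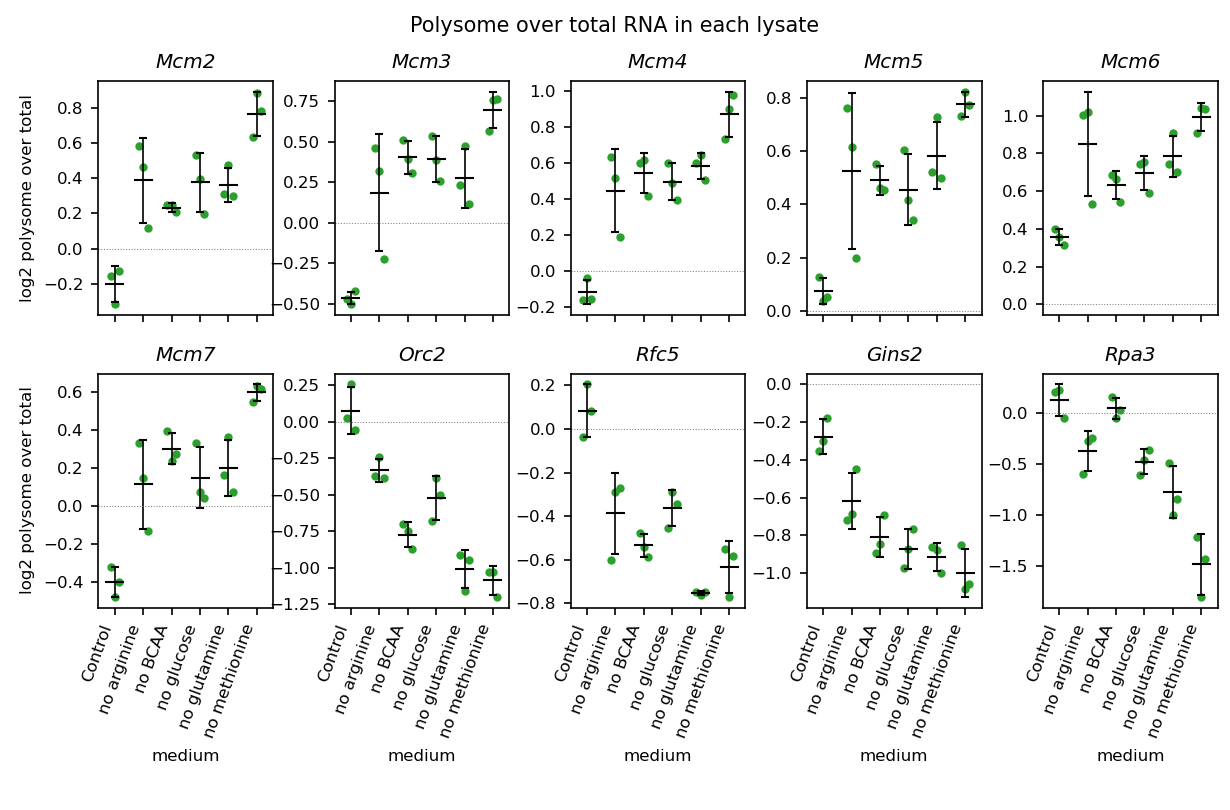
Log2 ratio of polysome to total RNA in each lysate (points) for Mcm2 to Mcm7, Orc2, Rfc5, Gins2 and Rpa3, by medium, with the mean and SD of 3 lysates per group. The Mcm3 points of the 15 deprived lysates lie above the 3 Control points, and the Orc2 points lie below them.

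In total RNA the same subunits were mostly not called, or lower without methionine. Without methionine Mcm3 fell by 0.73 ± 0.09, Mcm6 by 0.55 ± 0.09, Mcm2 by 0.39 ± 0.09, Mcm7 by 0.31 ± 0.08 and Mcm5 by 0.24 ± 0.07, and Mcm4 stood at -0.15 ± 0.13. Mcm3 had 142, 132 and 143 CPM in the methionine-free libraries, all below its Control libraries (269.6, 206 and 216), whereas on polysomes it had 221, 232 and 256 CPM, all above its Control libraries (195, 141 and 158). The total and polysome levels of the same gene thus moved in opposite directions without methionine (polysome change 0.52 ± 0.14). The Mcm5 call was lost without Control replicate 1 (-0.18, adjusted p = 0.082) and methionine-free replicate 2 (-0.21, adjusted p = 0.0542). Without BCAA Mcm2 fell by 0.38 ± 0.09 and Mcm6 by 0.34 ± 0.08. Mcm5 was higher without glutamine (0.33 ± 0.07) and without glucose (0.22 ± 0.07), the latter not called without glucose-free replicate 1 (0.19, adjusted p = 0.0819), Control replicate 2 (0.18, adjusted p = 0.107) and Control replicate 3 (0.20, adjusted p = 0.0729). With all libraries the loader Cdt1 was called higher in total RNA in 2 media. Without glutamine it rose by 0.52, from 42.0, 37.9 and 36.0 CPM in Control to 62.5, 55.7 and 48.1. On polysomes it was called higher in 4 media, its 5 values lying between 0.25 and 0.82.

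Among the origin-binding genes Orc1 was lower in total RNA in all 5 media, and the differences were smaller without Control replicate 1. Orc1 had 53.5, 33.6 and 33.7 CPM in Control, 27.1, 28.9 and 33.3 without arginine, 31.5, 29.1 and 31.5 without BCAA, 27.5, 26.8 and 26.6 without glucose, 30.9, 30.3 and 31.2 without glutamine and 26.5, 24.9 and 26.7 without methionine. Every deprived library lay below every Control library, and the first Control library lay far above the other two. The changes were -0.43 ± 0.13, -0.39 ± 0.12, -0.58 ± 0.13, -0.38 ± 0.12 and -0.63 ± 0.13 (adjusted p = 0.0005 without methionine). Without Control replicate 1 they were -0.18, adjusted p = 0.255 (arginine), -0.13, adjusted p = 0.255 (BCAA) and -0.13, adjusted p = 0.246 (glutamine), not called, and -0.32 without glucose and -0.37 without methionine, still called. The call was also lost without arginine-free replicate 1 (-0.37, adjusted p = 0.152) and replicate 2 (-0.41, adjusted p = 0.114), without BCAA-free replicate 2 (-0.35, adjusted p = 0.0778) and without glutamine-free replicate 2 (-0.37, adjusted p = 0.0503). On polysomes Orc1 was called only without glutamine when all libraries were used (0.34 ± 0.14). Without Control replicate 1 it was also called without BCAA (0.50, adjusted p = 0.00203) and methionine (0.56, adjusted p = 0.00047). Its TE was higher in 4 media (0.54, 0.51, 0.59 and 0.86 without BCAA, glucose, glutamine and methionine). The BCAA-free TE call of Orc1 was lost without BCAA-free replicate 1 (0.49), Control replicate 3 (0.55) and BCAA-free replicate 3 (0.55). The glucose-free TE call of Orc1 was lost without glucose-free replicate 1 (0.43), Control replicate 2 (0.54), glucose-free replicate 2 (0.49) and Control replicate 3 (0.52). The glutamine-free TE call of Orc1 was lost without glutamine-free replicate 1 (0.53). The polysome call was lost without glutamine-free replicate 1 (0.28, adjusted p = 0.141), Control replicate 2 (0.24, adjusted p = 0.185), glutamine-free replicate 2 (0.35, adjusted p = 0.0726) and Control replicate 3 (0.23, adjusted p = 0.198), and was 0.58 without Control replicate 1.

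Orc2, another subunit of the same complex, did the reverse: little in total RNA, and much less on polysomes. Its total RNA changes were -0.01, 0.02, -0.27, 0.02 and 0.05 in the order of the media above, called only without glucose. On polysomes it fell in all 5 media, from 106, 127 and 104 CPM in Control to 57.2, 58.8 and 49.6 without methionine and 59.7, 54.2 and 63.3 without glutamine. No deprived polysome library overlapped Control. Its TE was lower in all 5 media (-0.42, -0.86, -0.60, -1.09 and -1.17, adjusted p = 1.9e-09 without methionine) under all 3 scalings, although without arginine the call was lost without arginine-free replicate 1 (-0.40, adjusted p = 0.0706) and Control replicate 2 (-0.32, adjusted p = 0.0895). Orc6 was higher in total RNA without BCAA (0.32 ± 0.07) and without methionine (0.22 ± 0.07), the latter not called without methionine-free replicate 2 (0.14, adjusted p = 0.0978). Its TE was lower in the same media (-0.38 and -0.76), the BCAA-free value not being called without the ribosomal RNA entries.

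The helicase activators divided between Mcm10 and the GINS subunits. Mcm10, which helps the loaded helicase start, had 56.3, 47.4 and 45.0 CPM in Control total RNA, 52.5, 48.1 and 61.1 without arginine, 54.6, 57.1 and 58.5 without BCAA, 57.8, 56.3 and 53.3 without glucose, 76.9, 67.5 and 77.6 without glutamine and 58.0, 54.8 and 60.2 without methionine. The glutamine-free libraries lay above all Control libraries and the other media overlapped Control, and only the glutamine-free change was called (0.58 ± 0.09, adjusted p = 2e-05). On polysomes it rose in all 5 media, by 0.67, 1.00, 0.94, 1.39 and 1.36, the highest value among the 40 genes in 4 of them. Its Control polysome libraries had 45.8, 32.1 and 36.8 CPM and its glutamine-free ones 108, 101 and 92.5. The TE of Mcm10 was higher by 0.54, 0.70, 0.69, 0.68 and 1.06. The GINS subunits Gins2 and Gins4 had lower TE in all 5 media, at -0.34, -0.53, -0.59, -0.64 and -0.73 for Gins2 and -0.53, -0.43, -0.37, -0.94 and -0.60 for Gins4. Without the ribosomal RNA entries Gins2 was not called in the arginine-free medium, and Gins4 was not called in the BCAA-free and glucose-free media. With RLE scaling Gins2 was not called in the arginine-free and Gins4 not in the glucose-free medium. In the arginine-free medium the TE calls lost were Mcm10 (0.44) and Gins2 (-0.29) without arginine-free replicate 1, Mcm10 (0.47) and Gins2 (-0.35) without Control replicate 2, Mcm10 (0.48) and Gins2 (-0.31) without arginine-free replicate 2, Gins2 (-0.38) without Control replicate 1, and Gins2 (-0.29) without Control replicate 3. The glucose-free TE call of Gins4 was lost without glucose-free replicate 1 (-0.31) and Control replicate 2 (-0.30). In total RNA 4 of the 6 activators rose without glutamine (Mcm10, Gins3 by 0.40 ± 0.11, Cdc45 by 0.24 ± 0.09 and Gins1 by 0.22 ± 0.08). Of these Cdc45, the helicase cofactor, was not called without glutamine-free replicate 1 (0.25, adjusted p = 0.0655), Control replicate 2 (0.19, adjusted p = 0.152), glutamine-free replicate 2 (0.22, adjusted p = 0.0964), Control replicate 3 (0.24, adjusted p = 0.0795) and glutamine-free replicate 3 (0.26, adjusted p = 0.059), and Gins1 not without Control replicate 2 (0.23, adjusted p = 0.075), glutamine-free replicate 2 (0.22, adjusted p = 0.0687), Control replicate 3 (0.17, adjusted p = 0.161) and glutamine-free replicate 3 (0.20, adjusted p = 0.119).

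Among the polymerases Pold1 and Pola1, catalytic subunits, rose, and Pold2, Pole2 and Pola2, accessory subunits, fell, each in some media. Other subunits did not follow that split in total RNA. With all libraries the catalytic subunit Pole was called higher in 0 media and lower in 1 (values between -0.26 and 0.20). The accessory subunit Pold3 was called in no medium, and the primase subunit Prim2 rose. Pold1, the catalytic subunit of polymerase delta, had 71.8, 63.2 and 61.3 CPM in Control total RNA, 69.9, 72.3 and 69.9 without arginine, 83.2, 87.7 and 75.4 without BCAA, 129, 131 and 119 without glucose, 66.4, 53.6 and 60.6 without glutamine and 71.5, 71.4 and 88.9 without methionine. The glucose-free libraries were the highest, the BCAA-free ones also lay above Control, and the others overlapped it. The change without glucose was 0.95 ± 0.09 (adjusted p = 5.7e-08), the largest rise of any of the 40 genes in total RNA. It was 0.33 ± 0.09 without BCAA, not called without Control replicate 3 (0.28, adjusted p = 0.05), and 0.24 ± 0.09 without methionine, not called without Control replicate 2 (0.22, adjusted p = 0.129), Control replicate 3 (0.20, adjusted p = 0.169) and methionine-free replicate 3 (0.13, adjusted p = 0.309). Pola1, which makes the initiator DNA of each new strand, rose by 0.60 ± 0.11 without glucose and 0.38 ± 0.11 without glutamine, the latter not called without Control replicate 2 (0.27, adjusted p = 0.0783). Prim2, the large primase subunit, rose by 0.43 ± 0.08 without glucose. On polysomes Pold1 rose in all 5 media (0.49, 0.81, 1.36, 0.39 and 1.17) and so did Pola1 (0.45, 0.78, 1.26, 1.12 and 1.05), and Pola1 had a higher TE in all 5 (0.51, 0.56, 0.57, 0.60 and 0.90). The polysome rise of Pold1 was not called without arginine-free replicate 1 (0.40, adjusted p = 0.0789) and Control replicate 2 (0.35, adjusted p = 0.0625) in the arginine-free medium, nor without glutamine-free replicate 1 (0.33, adjusted p = 0.0987), Control replicate 2 (0.21, adjusted p = 0.202) and glutamine-free replicate 2 (0.37, adjusted p = 0.0683) in the glutamine-free medium. The arginine-free polysome rise of Pola1 was lost without arginine-free replicate 1 (0.35, adjusted p = 0.0681) and Control replicate 3 (0.36, adjusted p = 0.0574). The arginine-free TE call of Pola1 was lost without Control replicate 1 (0.49), arginine-free replicate 1 (0.38), arginine-free replicate 2 (0.49) and Control replicate 3 (0.44). The BCAA-free TE call of Pola1 was lost without BCAA-free replicate 1 (0.51) and Control replicate 3 (0.50). The glucose-free TE call of Pola1 was lost without glucose-free replicate 1 (0.50) and Control replicate 3 (0.51).

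The second subunit of polymerase delta, Pold2, moved in total RNA mainly in the BCAA-free medium. In total RNA it had 68.0, 63.5 and 66.6 CPM in Control and 41.6, 43.1 and 38.5 without BCAA, with no overlap, a change of -0.69 ± 0.07 (adjusted p = 2.1e-07), and between -0.11 and 0.14 in the other media. On polysomes it was lower, at -1.13, -0.31, -0.40 and -0.44, without BCAA, glucose, glutamine and methionine. The TE of Pold2 was called lower in 4 of the 5 media, its 5 values lying between -0.55 and -0.30. Without BCAA, glucose and methionine it was called under all 3 scalings. Pole2, the second subunit of polymerase epsilon, fell without BCAA (-0.61 ± 0.08) and without glutamine (-0.38 ± 0.08), and its TE was called in no medium. Pola2, the regulatory subunit of polymerase alpha, was lower without BCAA (-0.52 ± 0.08), methionine (-0.30 ± 0.08), glucose (-0.29 ± 0.08) and arginine (-0.28 ± 0.08). The arginine-free call was lost without Control replicate 1 (-0.22, adjusted p = 0.172), arginine-free replicate 1 (-0.27, adjusted p = 0.111), arginine-free replicate 2 (-0.24, adjusted p = 0.155) and Control replicate 3 (-0.31, adjusted p = 0.0582), and the glucose-free one without glucose-free replicate 3 (-0.22, adjusted p = 0.0592).

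Among the clamp and its loader, Pcna was the gene called in most media in total RNA. Pcna had 565, 551 and 585 CPM in Control total RNA, 509.9, 515 and 545 without arginine, 438, 424 and 441 without BCAA, 441, 441 and 442 without glucose, 475, 523 and 528 without glutamine and 372, 489 and 428 without methionine. All deprived libraries lay below all Control libraries, but only 3 changes were called: -0.38 ± 0.08 without BCAA, -0.36 ± 0.08 without glucose and -0.40 ± 0.08 without methionine (adjusted p = 0.00026). It stood at -0.12 ± 0.07 and -0.16 ± 0.07 without arginine and glutamine. On polysomes its lowest value was -0.80 ± 0.06, without methionine. Rfc5, a small loader subunit, was called in total RNA only without BCAA when all libraries were used (-0.13, -0.18, -0.01, -0.00 and -0.10 in the order of the media above). Without methionine-free replicate 2 it was also called without methionine (-0.18, adjusted p = 0.0389). It fell on polysomes in all 5 media (-0.59, -0.69, -0.38, -0.70 and -0.74), with a lower TE in all 5 (-0.47, -0.62, -0.45, -0.84 and -0.73) under all 3 scalings. The polysome level of Rfc5 was 79.6, 90.7 and 82.4 CPM in Control and 49.0, 50.5 and 52.3 without methionine. The arginine-free TE call was lost without arginine-free replicate 1 (-0.37, adjusted p = 0.0561). Without methionine 5 of the 6 clamp and loader genes had a lower TE, the exception being the large subunit Rfc1 (0.28 ± 0.18). Rfc1 was higher on polysomes in 4 media (0.45, 0.53, 0.66 and 0.33), and the methionine-free value was not called without methionine-free replicate 1 (0.27, adjusted p = 0.0997), Control replicate 2 (0.24, adjusted p = 0.115) and Control replicate 3 (0.24, adjusted p = 0.13). Without Control replicate 1 it was 0.54.

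In the single-strand binding protein RPA, polysome RNA of Rpa2 and Rpa3 was lower in 4 media each, while that of Rpa1 was higher in 3. Rpa1, the large subunit, had 175, 143 and 144 CPM in Control total RNA, 135, 113 and 153 without arginine, 116, 114 and 117 without BCAA, 179, 166 and 159 without glucose, 142, 132 and 144 without glutamine and 126, 123 and 120.1 without methionine. The BCAA-free and methionine-free libraries lay below Control and the others overlapped it. The changes were -0.42 ± 0.09 and -0.33 ± 0.09, and the methionine-free one was not called without Control replicate 1 (-0.22, adjusted p = 0.06). Rpa3, the smallest subunit, had the lowest TE change of the 40 genes without methionine. Its log2 polysome to total ratio was 0.21, 0.23 and -0.05 in the Control lysates and -1.22, -1.80 and -1.43 in the methionine-free ones, and the TE changes were -0.49, -0.07, -0.60, -0.91 and -1.64 in the order arginine, BCAA, glucose, glutamine and methionine, called in all but the BCAA-free medium (adjusted p = 5.8e-09 without methionine). The glucose-free call was lost without glucose-free replicate 1 (-0.53, adjusted p = 0.0551), and the arginine-free call without Control replicate 1 (-0.45, adjusted p = 0.0991), arginine-free replicate 1 (-0.38, adjusted p = 0.261), Control replicate 2 (-0.43, adjusted p = 0.155) and arginine-free replicate 2 (-0.54, adjusted p = 0.0838), as well as without the ribosomal RNA entries and with RLE scaling. Rpa2, the middle subunit, fell in total RNA without glucose (-0.55 ± 0.06) and without methionine (-0.38 ± 0.06). On polysomes it was lower without BCAA, glucose, glutamine and methionine (-0.22, -0.60, -0.19 and -0.76), and its TE was lower without methionine (-0.47 ± 0.08) and glutamine (-0.26 ± 0.08). The glutamine-free TE call was lost without Control replicate 2 (-0.22, adjusted p = 0.0725) and glutamine-free replicate 2 (-0.24, adjusted p = 0.0508), and also without the ribosomal RNA entries, with RLE scaling and by DESeq2. Rpa3 was lower on polysomes without arginine, glucose, glutamine and methionine (-0.52, -0.94, -0.98 and -1.49), and Rpa1 was higher there without glucose, glutamine and methionine (0.43, 0.41 and 0.38).

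Ung, whose product cuts uracil out of DNA, had the largest fall of the 40 genes in total RNA in all media but the arginine-free one. In total RNA it had 22.7, 24.8 and 20.8 CPM in Control, 21.5, 21.4 and 22.6 without arginine, 7.44, 9.54 and 7.58 without BCAA, 9.71, 9.43 and 8.42 without glucose, 12.6, 12.0 and 10.8 without glutamine and 9.03, 9.69 and 9.15 without methionine. The arginine-free libraries overlapped Control and all others lay far below it. Ung fell by 1.48 ± 0.10 without BCAA (adjusted p = 3.9e-10), 1.31 ± 0.10 without glucose, 0.95 ± 0.10 without glutamine and 1.29 ± 0.10 without methionine, and stood at -0.06 ± 0.09 without arginine. These 4 calls held when each library was left out in turn. On polysomes Ung was lower in all 5 media (-0.48, -1.75, -1.75, -1.50 and -2.24), with 29.0, 29.2 and 34.2 CPM in Control and 7.01, 6.04 and 6.57 without methionine. Its TE was lower without arginine, glucose, glutamine and methionine (-0.43, -0.52, -0.69 and -1.04). The first was lost without arginine-free replicate 1 (-0.39, adjusted p = 0.156), arginine-free replicate 2 (-0.43, adjusted p = 0.0915) and Control replicate 3 (-0.28, adjusted p = 0.23) and without the ribosomal RNA entries, and the glucose-free one without glucose-free replicate 1 (-0.39, adjusted p = 0.102) and Control replicate 3 (-0.37, adjusted p = 0.0966).

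Fen1, the nuclease that trims Okazaki fragments, was lower in total RNA in all 5 media (-0.57, -0.52, -0.46, -0.23 and -0.67, each ± 0.08). Its Control libraries had 108, 95.6 and 93.5 CPM, its arginine-free ones 70.5, 60.6 and 68.7 and its methionine-free ones 60.3, 61.5 and 65.5, with no overlap. The glutamine-free call was lost without Control replicate 1 (-0.16, adjusted p = 0.129) and glutamine-free replicate 2 (-0.17, adjusted p = 0.125), and the other 4 held in every such fit. On polysomes Fen1 was called in no medium (-0.22, -0.17, -0.05, 0.16 and 0.04), and its TE was higher without methionine (0.62 ± 0.12) and without glucose (0.33 ± 0.12). The glucose-free call was lost without Control replicate 1 (0.32, adjusted p = 0.0748), glucose-free replicate 1 (0.25, adjusted p = 0.165), Control replicate 2 (0.31, adjusted p = 0.109), glucose-free replicate 2 (0.34, adjusted p = 0.0906) and Control replicate 3 (0.35, adjusted p = 0.0781). Lig1, which seals the remaining nick, rose in total RNA without glucose (0.52 ± 0.14) and glutamine (0.38 ± 0.14). Its Control libraries had 84.7, 50.6 and 54.0 CPM, and without Control replicate 1 the rises were 0.79 and 0.65. The glutamine-free one was not called without glutamine-free replicate 1 (0.26, adjusted p = 0.218), Control replicate 2 (0.24, adjusted p = 0.231), Control replicate 3 (0.28, adjusted p = 0.197) and glutamine-free replicate 3 (0.41, adjusted p = 0.0649). On polysomes Lig1 rose by 1.28 ± 0.18 without methionine.

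The 2 subunits of ribonucleotide reductase, the enzyme that makes deoxynucleotides, separated. Rrm2, the small subunit, had 139.9, 136 and 143 CPM in Control total RNA, 138, 139.6 and 146 without arginine, 77.8, 73.3 and 73.9 without BCAA, 94.2, 88.8 and 86.3 without glucose, 118, 117 and 120.0 without glutamine and 102, 92.8 and 96.9 without methionine. The arginine-free libraries overlapped Control and the rest lay below it. Rrm2 fell by 0.89 ± 0.06 without BCAA (adjusted p = 1.6e-10), 0.64 ± 0.06 without glucose, 0.24 ± 0.06 without glutamine and 0.52 ± 0.06 without methionine, and stood at 0.02 ± 0.06 without arginine. On polysomes it was lower without BCAA (-0.64 ± 0.08), glucose (-0.48 ± 0.08) and methionine (-0.24 ± 0.08) and higher without arginine (0.32 ± 0.08) and glutamine (0.23 ± 0.08). The methionine-free and glutamine-free polysome calls were lost without Control replicate 1 (-0.19, adjusted p = 0.0645) and methionine-free replicate 1 (-0.21, adjusted p = 0.0512), and without Control replicate 2 (0.19, adjusted p = 0.0711), glutamine-free replicate 2 (0.20, adjusted p = 0.0605) and Control replicate 3 (0.21, adjusted p = 0.0578). Rrm1, the large subunit, was called in no medium in total RNA with all libraries (-0.18, -0.11, 0.37, 0.33 and -0.09). The glucose-free value was called without Control replicate 1 (0.67, adjusted p = 4.6e-05) and glucose-free replicate 3 (0.44, adjusted p = 0.0425), and the glutamine-free value without Control replicate 1 (0.64, adjusted p = 6.7e-05). It rose on polysomes in all 5 (0.44, 0.77, 1.14, 1.17 and 1.13) and had a higher TE in 4 (0.77, 0.69, 0.70 and 1.14). Its polysome level was 152, 87.2 and 95.1 CPM in Control and 269, 259.8 and 224 without glutamine. The arginine-free polysome rise was not called without arginine-free replicate 1 (0.36, adjusted p = 0.13), Control replicate 2 (0.32, adjusted p = 0.112) and Control replicate 3 (0.34, adjusted p = 0.132), and was 0.73 without Control replicate 1. The glucose-free TE call of Rrm1 was lost without glucose-free replicate 1 (0.64) and glucose-free replicate 2 (0.70). The glutamine-free TE call of Rrm1 was lost without glutamine-free replicate 2 (0.62). Tyms, thymidylate synthase, was called in no medium in total RNA or, with all libraries, in TE, and Tk1, thymidine kinase, fell in total RNA without BCAA (-0.35 ± 0.08) and methionine (-0.35 ± 0.08).

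**Figure D3:**
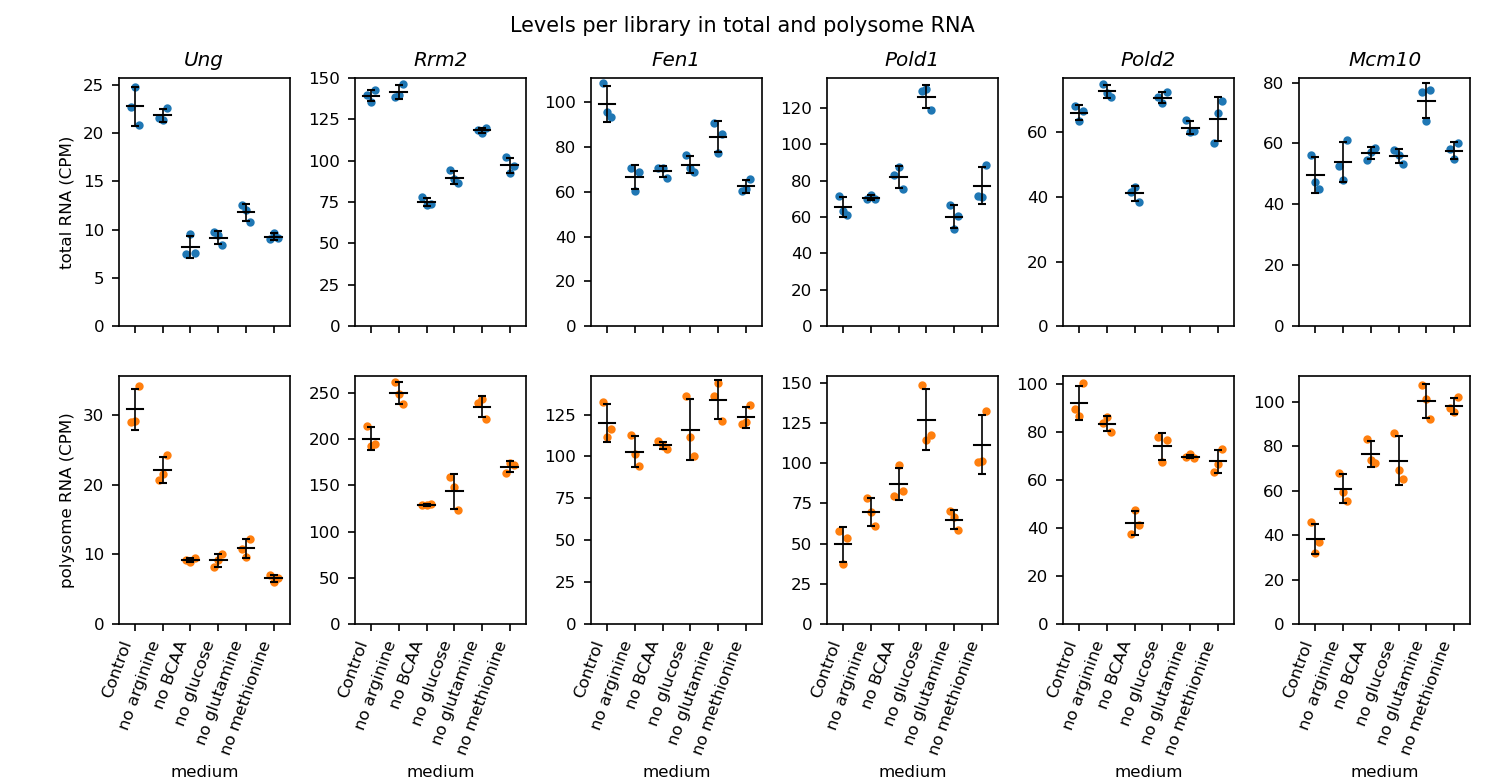
Levels (CPM) of Ung, Rrm2, Fen1, Pold1, Pold2 and Mcm10 in every total and polysome RNA library of the nutrient experiment, by medium, with the mean and SD of 3 libraries per group. Ung is lower than Control in 4 of 5 media in total RNA, Pold2 is lower in total RNA in the BCAA-free medium, and the polysome level of Mcm10 is above Control in all 5 media.

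Deprivations were set against each other in all 10 pairs in total RNA, each adjusted over all genes. The methionine-free medium stood apart from the glucose-free and glutamine-free ones: 2 of the 40 were higher and 19 lower than without glucose (17.4% and 16.6% of all genes), and 1 higher and 19 lower than without glutamine (12.8% and 12.9%). Mcm3 was lower in both, at -0.71 ± 0.09 against glucose and -0.79 ± 0.09 against glutamine. The glucose-free and glutamine-free media were in turn above the BCAA-free one, with 16 higher and 2 lower (13.9% and 14.8% of all genes) and 13 higher and 1 lower (7.42% and 6.76%). Pold2 was higher than without BCAA in the glucose-free (0.78 ± 0.07), glutamine-free (0.58 ± 0.07) and methionine-free media (0.64 ± 0.07), so its fall differed between media by a direct test. Pold1 without glucose was above each other medium, by 0.84 ± 0.09 against arginine and 0.62 ± 0.09 against BCAA. Glutamine-free and methionine-free Pold1 were below glucose-free Pold1 (-1.07 ± 0.09 and -0.71 ± 0.09). Ung without arginine was above all others, since without BCAA, glucose, glutamine and methionine it was lower than without arginine (-1.42 ± 0.10, -1.25 ± 0.10, -0.89 ± 0.10 and -1.23 ± 0.10). Cdt1, the helicase loader, was lower without methionine than without glutamine (-0.81 ± 0.12). The remaining pairs gave 2 higher and 8 lower (BCAA against arginine, 12% and 8.27% of all genes), 11 and 8 (glucose against arginine, 19.8% and 17.4%), 13 and 5 (glutamine against arginine, 19.3% and 16.9%), 2 and 11 (methionine against arginine, 14.4% and 10.7%), 3 and 5 (methionine against BCAA, 6.68% and 6.68%) and 9 and 5 (glutamine against glucose, 16.7% and 15.8%). The 14 calls of glutamine against BCAA were 9 without glutamine-free replicate 3 or BCAA-free replicate 3, and the 8 of methionine against BCAA were 5 without BCAA-free replicate 3. The 8 lower for BCAA against arginine became 5 with BCAA-free replicate 1 or arginine-free replicate 1 or BCAA-free replicate 2 or BCAA-free replicate 3 left out. The 8 lower for glucose against arginine became 5 with arginine-free replicate 3 left out. The 13 higher for glutamine against arginine became 8 with arginine-free replicate 2 left out. The 13 higher for glutamine against BCAA became 8 with glutamine-free replicate 3 or BCAA-free replicate 3 left out. The 5 lower for methionine against BCAA became 2 with BCAA-free replicate 3 left out and 3 with BCAA-free replicate 1 or methionine-free replicate 2 left out. The 5 lower for glutamine against glucose became 3 with glucose-free replicate 1 or glucose-free replicate 2 or glutamine-free replicate 2 left out.

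In untreated cells more of these mRNAs were higher than lower in polysome RNA against total RNA. In Control 22 of the 40 were higher and 9 lower in polysome than in total RNA (37.6% and 28% of all genes), with a median of 0.31 against 0.09 for all genes. The highest were Rpa2 (0.70 ± 0.06), Gins1 (0.67 ± 0.07) and Rfc3 (0.67 ± 0.06), and the lowest Pola1 (-0.63 ± 0.12), Rrm1 (-0.50 ± 0.16) and Pole (-0.50 ± 0.10), the catalytic subunit of polymerase epsilon. Mcm3 (-0.47 ± 0.11), Mcm7 (-0.39 ± 0.10) and Mcm10 (-0.35 ± 0.10) were also below 0, and their TE rose in the deprivations. Gins4 (-0.31 ± 0.08) and Gins2 (-0.28 ± 0.08) were below 0 as well, and their TE was lower in all 5 deprivations. The same Control libraries enter both values, which are therefore not independent. With RLE scaling the split was 21 and 10, and without the ribosomal RNA entries 18 and 10. In DMSO 24 were higher and 2 lower (28.4% and 30.9% of all genes). Tyms (1.27 ± 0.13), Rfc3 (1.24 ± 0.10) and Gins1 (1.23 ± 0.11) were the highest, and Pola1 (-0.68 ± 0.14) and Orc2 (-0.65 ± 0.10) the lower ones. Without DMSO replicate 3, Mcm5, Cdt1, Pold1 and Mcm3 were no longer called in DMSO (0.33, 0.34, 0.21 and 0.19).

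With Torin1 and 4EGI-1 nearly all of the genes called in total RNA were lower, and with halofuginone none was called. In total RNA Torin1 gave 0 higher and 8 lower of 40 (13.3% and 13.3% of all genes), 4EGI-1 1 higher and 7 lower (14.1% and 12.3%) and halofuginone 0 and 0 (0.239% and 0.0399%). At an unadjusted p under 0.05 edgeR had 1 higher and 15 lower with Torin1, where DESeq2 called 0 and 8, and 0 higher and 7 lower with halofuginone, where DESeq2 called 1, Ung (-0.30 ± 0.08, adjusted p = 0.0443). The median change of the 40 genes was -0.19 with Torin1, -0.15 with 4EGI-1 and -0.12 with halofuginone. The share of falls lay above the background with Torin1 and near it with 4EGI-1, and the shares of rises with both lay below it. The 3 comparisons share the same DMSO libraries. The 4EGI-1 count of 8 was 4 without 4EGI-1 replicate 3, 13 without 4EGI-1 replicate 4, and 5 without DMSO replicate 1 or 4. DMSO replicate 1 was the highest of the 3 DMSO total RNA libraries for 25 of the 40 genes.

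Ung, Rrm2 and Fen1 were among the falls with both Torin1 and 4EGI-1. Ung had 54.7, 55.2 and 49.3 CPM in DMSO, 44.3, 41.6 and 43.3 with halofuginone, 31.7, 34.1 and 32.2 with Torin1 and 42.3, 42.1 and 46.8 with 4EGI-1. All treated libraries lay below all DMSO libraries, with Torin1 lowest (-0.70 ± 0.08, adjusted p = 6.1e-06). It stood at -0.30 ± 0.08 with halofuginone, not called, and at -0.28 ± 0.08 with 4EGI-1, a call lost without 4EGI-1 replicate 3 (-0.26, adjusted p = 0.06). Rrm2 had 284, 253 and 255 CPM in DMSO, 221, 222 and 241 with halofuginone, 163, 173 and 165 with Torin1 and 186, 191 and 209 with 4EGI-1. Here too no treated library overlapped DMSO, and the calls were -0.66 ± 0.07 with Torin1 and -0.43 ± 0.07 with 4EGI-1. Fen1 had 114, 91.8 and 107 CPM in DMSO, 59.7, 56.0 and 65.3 with Torin1 and 57.8, 82.7 and 95.7 with 4EGI-1. The Torin1 fall of Fen1 was the largest of the set (-0.79 ± 0.13), while its 4EGI-1 libraries overlapped DMSO and that call (-0.41 ± 0.13) was lost without 4EGI-1 replicate 2 (-0.23, adjusted p = 0.116), 4EGI-1 replicate 3 (-0.45, adjusted p = 0.0573), DMSO replicate 1 (-0.35, adjusted p = 0.104) and DMSO replicate 4 (-0.40, adjusted p = 0.0795). Pcna was lower with Torin1 (-0.34 ± 0.07) and 4EGI-1 (-0.27 ± 0.07). Gins1, a GINS subunit, fell by 0.64 ± 0.11 with Torin1. Orc2 (-0.34 ± 0.08) and Rpa2 (-0.44 ± 0.09) were called with Torin1 only, and so was Pola2 (-0.39 ± 0.13), a call lost without DMSO replicate 1 (-0.35, adjusted p = 0.0909), DMSO replicate 4 (-0.39, adjusted p = 0.0662), Torin1 replicate 1 (-0.38, adjusted p = 0.0841) and Torin1 replicate 3 (-0.34, adjusted p = 0.1). The loader subunit Rfc5 (-0.40 ± 0.07) was called with 4EGI-1 only, and Pole was the single rise with 4EGI-1 (0.27 ± 0.08), lost without 4EGI-1 replicate 4 (0.22, adjusted p = 0.0719), DMSO replicate 1 (0.24, adjusted p = 0.0754) and DMSO replicate 4 (0.26, adjusted p = 0.0649). With 4EGI-1, Rfc1 was called higher without DMSO replicate 1 (0.38, adjusted p = 0.0129), and Orc2 lower without 4EGI-1 replicate 2 (-0.23, adjusted p = 0.0485).

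**Figure D4:**
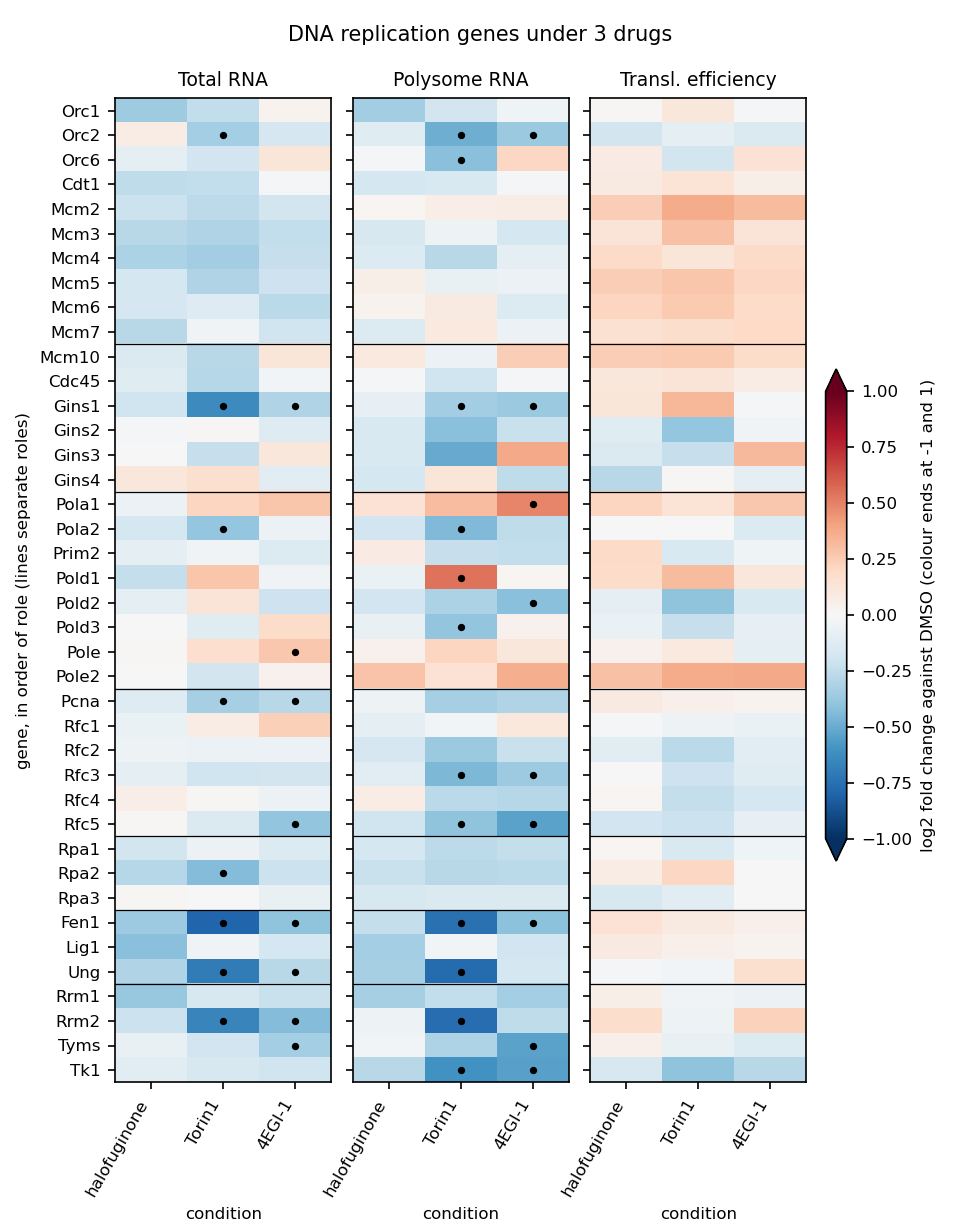
Log2 fold change of the 40 replication and nucleotide supply genes (rows, ordered by role) against DMSO with halofuginone, Torin1 and 4EGI-1 (columns), in total RNA, polysome RNA and translational efficiency, 3 libraries per group. Colour gives the log2 change and dots mark genes called by edgeR at an adjusted p under 0.05. No dot stands in the halofuginone columns or in the translational efficiency panel.

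On polysomes too most calls with Torin1 and 4EGI-1 were lower, and TE was called for no gene. Torin1 gave 1 higher and 11 lower (8.48% and 8.3% of all genes), 4EGI-1 1 and 8 (14.1% and 14.5%) and halofuginone 0 and 0 (0.0409% and 0.00818%), with 3 genes, all lower, at an unadjusted p under 0.05 in edgeR and 0 by DESeq2 for the last. With Torin1, Ung fell by 0.77 ± 0.13, Rrm2 by 0.76 ± 0.13, Fen1 by 0.75 ± 0.15 and Tk1 by 0.61 ± 0.12. Pold1 was the single rise (0.55 ± 0.18). Its DMSO polysome libraries had 91.8, 162 and 104 CPM and its Torin1 libraries 153, 186 and 182, so DMSO replicate 3 overlapped them. The Pold1 call was lost without DMSO replicate 1 (0.41, adjusted p = 0.169), DMSO replicate 4 (0.47, adjusted p = 0.141), Torin1 replicate 1 (0.63, adjusted p = 0.0584), Torin1 replicate 3 (0.50, adjusted p = 0.136) and Torin1 replicate 4 (0.51, adjusted p = 0.112), and without DMSO replicate 3 the value was 0.86. With 4EGI-1, Tk1 (-0.54 ± 0.12), Rfc5 (-0.54 ± 0.11) and Tyms (-0.54 ± 0.13) fell, and Pola1 rose (0.49 ± 0.15), a call lost without 4EGI-1 replicate 3 (0.47, adjusted p = 0.0555), 4EGI-1 replicate 4 (0.44, adjusted p = 0.0673) and DMSO replicate 3 (0.43, adjusted p = 0.0632). The Torin1 count of 12 was 5 without DMSO replicate 1 or Torin1 replicate 4, 6 without Torin1 replicate 1, and 7 without DMSO replicate 4 or Torin1 replicate 3. The 4EGI-1 count of 9 was 3 without DMSO replicate 3 and 5 without DMSO replicate 1 or 4EGI-1 replicate 2. In TE the counts were 0 with each drug (0.118% higher and 1.67% lower of all genes with Torin1, 0.282% and 0.282% with 4EGI-1, 0% and 0% with halofuginone). At an unadjusted p under 0.05 edgeR gave 4 genes with Torin1, 0 with 4EGI-1 and 0 with halofuginone, and DESeq2 called Pold2 with Torin1 (-0.44 ± 0.14, adjusted p = 0.0449) and none with the others. The TE of Mcm3 under the drugs was 0.13 ± 0.22, 0.30 ± 0.22 and 0.13 ± 0.22 with halofuginone, Torin1 and 4EGI-1. Over the 6 subunits Mcm2 to Mcm7 and the 3 drugs the TE values lay between 0.12 and 0.37, none of them called. Whether these differ from the deprivations was not tested, because the 2 experiments used different RNA preparations.

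The 3 drugs were also set against each other in total RNA. Torin1 was above halofuginone for 1 gene and below it for 6 (10.8% and 11.4% of all genes), with Rrm2 at -0.45 ± 0.07 and Gins1 at -0.44 ± 0.11. 4EGI-1 was above halofuginone for 1 and below it for 3 (11.1% and 10.3%), with Rfc5 at -0.40 ± 0.07. 4EGI-1 was above Torin1 for 9 and below it for 4 (19.4% and 17.9%), with Ung at 0.42 ± 0.08 and Mcm10 at 0.39 ± 0.11 higher and Pold2 at -0.34 ± 0.08 lower. Ung was thus lower with Torin1 than with 4EGI-1 by a direct test. The number of calls between 4EGI-1 and Torin1, 13, was 8 without Torin1 replicate 1. The 4 calls between 4EGI-1 and halofuginone were 1 without 4EGI-1 replicate 3 or halofuginone replicate 3, and 2 without halofuginone replicate 4.

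Other genes of the same pathways were followed through lists outside the 40. Of 31 other origin and fork factors the numbers higher and lower in total RNA were 1 and 1, 6 and 7, 7 and 7, 10 and 3, and 7 and 7 in the arginine-free, BCAA-free, glucose-free, glutamine-free and methionine-free media, with medians of -0.05, 0.02, 0.05, 0.07 and -0.01. Shares of all genes were 5.1% and 4.14%, 16.4% and 13.6%, 21.8% and 19%, 20.4% and 18.6%, and 19.5% and 15.7% in that order. Dna2, a nuclease and helicase that processes long flaps, was lower in all 5 (-0.36, -1.12, -0.88, -0.97 and -0.82), and Orc5, a further subunit of the origin recognition complex, was higher in all 5 (0.38, 0.90, 0.69, 0.58 and 0.75). The arginine-free calls were lost without Control replicate 1 (-0.31, adjusted p = 0.173), Control replicate 2 (-0.39, adjusted p = 0.0606), Control replicate 3 (-0.36, adjusted p = 0.108), arginine-free replicate 1 (-0.29, adjusted p = 0.214), arginine-free replicate 2 (-0.39, adjusted p = 0.0861) and arginine-free replicate 3 (-0.39, adjusted p = 0.062) for Dna2 and without arginine-free replicate 3 (0.26, adjusted p = 0.0507) for Orc5. Atad5, which unloads the clamp, rose by 1.18 ± 0.16 without glutamine, Chtf18, part of an alternative clamp loader, by 0.91 ± 0.10 without glucose and the helicase gene Recql4 by 0.85 ± 0.11 without glutamine. In TE the counts of this list were 5 and 3, 7 and 5, 7 and 2, 9 and 6, and 15 and 9, and without the ribosomal RNA entries 7 and 3, 13 and 2, 11 and 1, 15 and 3, and 17 and 8. The TE shares of all genes under both scalings are those given above for the 40 genes. Top2a, topoisomerase II alpha, stood at 1.09 ± 0.14 and Gmnn, the Cdt1 inhibitor geminin, at -1.28 ± 0.12 without methionine.

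Among enzymes around deoxynucleotides the counts of lower genes were highest without glucose and glutamine. Of 14 others (such as the dUTPase Dut, the deoxycytidine kinase Dck and the dCMP deaminase Dctd), the numbers higher and lower in total RNA were 0 and 0, 2 and 5, 3 and 9, 1 and 8, and 1 and 2 in the same order, where the shares of all genes were 5.1% and 4.14%, 16.4% and 13.6%, 21.8% and 19%, 20.4% and 18.6%, and 19.5% and 15.7%. As a share of 14, the methionine-free count of higher genes lay below that of all genes, and the count of lower genes lay near it. Dctpp1, which hydrolyses dCTP and its analogs, fell most without glucose (-0.58 ± 0.12) and BCAA (-0.55 ± 0.12), and Dctd most without glutamine (-0.65 ± 0.09). In TE the counts were 1 and 5, 0 and 7, 0 and 4, 1 and 8, and 1 and 9, and 1 and 3, 1 and 4, 0 and 2, 1 and 3, and 1 and 9 without the ribosomal RNA entries. The TE shares of all genes are again those given above for the 40 genes. Without methionine the median TE of this list was -0.83, where that of the 40 genes was 0.14 and that of all genes -0.14. Dctpp1 (-1.24 ± 0.16), the thymidylate kinase Dtymk (-1.18 ± 0.14) and Dut (-1.11 ± 0.10) were its lowest called genes. Of 12 genes of de novo purine synthesis the counts in total RNA were 0 and 1, 1 and 7, 0 and 4, 0 and 5, and 0 and 7, with Gart at -0.74 ± 0.08 without BCAA and Ppat, the committed enzyme, at -0.73 ± 0.07 without glucose. Of 5 genes of de novo pyrimidine synthesis they were 0 and 1, 0 and 2, 0 and 2, 0 and 2, and 0 and 3. Ctps1, CTP synthase, was lower in all 5 media (-0.32, -0.54, -0.37, -0.33 and -0.42), the arginine-free call being lost without Control replicate 1 (-0.28, adjusted p = 0.053) and arginine-free replicate 2 (-0.24, adjusted p = 0.0737).

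Of the E2F family more genes were called lower than higher in the BCAA-free, glucose-free, glutamine-free and methionine-free media. Of 12 measured E2F, DP and pocket protein genes, the numbers higher and lower in total RNA were 1 and 2, 0 and 6, 1 and 6, 1 and 5, and 1 and 5. Among all genes the shares were 5.1% and 4.14%, 16.4% and 13.6%, 21.8% and 19%, 20.4% and 18.6%, and 19.5% and 15.7%. E2f6, a repressor of the family, was lower in all 5 media (-0.41, -0.69, -0.47, -0.76 and -1.01), the arginine-free call being lost without Control replicate 1 (-0.37, adjusted p = 0.0539) and arginine-free replicate 1 (-0.39, adjusted p = 0.0527), and the activator E2f1 was lower without methionine (-0.90 ± 0.12), BCAA (-0.53 ± 0.12) and glutamine (-0.49 ± 0.12). With Torin1 the counts were 1 and 7 and with 4EGI-1 2 and 4. Of 16 G2 and mitosis genes the counts were 1 and 1, 7 and 4, 4 and 5, 6 and 3, and 7 and 2 in the deprivations, 5 and 0 with Torin1 and 1 and 12 with 4EGI-1. The shares of all genes just given for the media apply to this list too. For both drugs and both lists they are those given above for total RNA. With 4EGI-1 the falls included Cdc20, the activator of the anaphase-promoting complex (the largest, adjusted p = 1.9e-05), and the centromere protein gene Cenpf (-0.88 ± 0.08), which rose with Torin1 (0.51 ± 0.08). Markers of mitosis therefore moved with 4EGI-1 beside the falls of Rrm2, Ung and Pcna. Their part in those falls was not tested.

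Of 17 genes of replication stress and p53 targets the counts were 4 and 1, 5 and 4, 6 and 3, 7 and 4, and 7 and 6 in the deprivations, 3 and 4 with Torin1 and 5 and 2 with 4EGI-1. In the deprivations the shares of all genes were 5.1% and 4.14%, 16.4% and 13.6%, 21.8% and 19%, 20.4% and 18.6%, and 19.5% and 15.7%. Gadd45a, a stress gene that binds Pcna, rose in all 5 media (0.75, 1.75, 1.68, 2.56 and 1.57), as did Bbc3, the p53 target PUMA (0.82, 1.01, 1.02, 1.48 and 0.97). Cdkn1a, the p53 target p21, was lowest without glutamine (-0.71 ± 0.08), and Sesn1, another p53 target, without BCAA, glucose and methionine (-0.81, -1.02 and -0.98). With Torin1, Cdkn1a (-1.39 ± 0.09) and Phlda3 (-1.15 ± 0.15) fell. Textbook p53 targets stood among the genes that rose and among those that fell. Of the 106 list genes tested in the drug experiment, halofuginone gave 0 higher and 0 lower in total RNA by edgeR, 21 at an unadjusted p under 0.05 and 0 by DESeq2. With Torin1 the origin and fork factors gave 5 and 12 (Cdc6, which helps load the helicase, at -0.73 ± 0.19), and with 4EGI-1 5 and 4. With Torin1 the counts were 1 and 3 for the other deoxynucleotide enzymes, 2 and 2 for purine and 0 and 2 for pyrimidine synthesis. With 4EGI-1 they were 1 and 0, 0 and 3, and 0 and 1. For all drug counts in this paragraph the shares of all genes are those given above for total RNA.

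Some of these list counts changed by more than 1.5 times when 1 library was left out, here for counts of 3 or more. Among the other origin and fork factors, the 7 lower without BCAA became 4 with Control replicate 1 or BCAA-free replicate 2 or BCAA-free replicate 3 left out, and the 7 higher without glucose became 12 with Control replicate 1 left out. Also, the 7 higher without methionine became 4 with Control replicate 2 left out, and the 5 higher with Torin1 became 3 with DMSO replicate 3 or Torin1 replicate 1 or Torin1 replicate 4 left out. Also, the 5 higher in TE without arginine became 1 with arginine-free replicate 1 left out, 2 with arginine-free replicate 2 left out, 3 with Control replicate 3 left out and 8 with arginine-free replicate 3 left out, and the 3 lower in TE without arginine became 0 with arginine-free replicate 1 left out and 5 with arginine-free replicate 3 left out. Also, the 7 higher in TE without BCAA became 3 with BCAA-free replicate 1 left out and 4 with Control replicate 3 or BCAA-free replicate 2 left out, and the 5 lower in TE without BCAA became 2 with Control replicate 2 left out. Also, the 7 higher in TE without glucose became 4 with glucose-free replicate 1 or glucose-free replicate 2 left out, and the 6 lower in TE without glutamine became 3 with Control replicate 2 or glutamine-free replicate 2 left out. Among the other deoxynucleotide enzymes, the 3 lower with Torin1 became 1 with Torin1 replicate 4 left out, and the 5 lower in TE without arginine became 0 with arginine-free replicate 1 left out, 1 with Control replicate 2 or arginine-free replicate 2 left out and 2 with Control replicate 3 left out. Also, the 7 lower in TE without BCAA became 3 with Control replicate 2 left out and 4 with BCAA-free replicate 2 left out, and the 4 lower in TE without glucose became 2 with Control replicate 2 or glucose-free replicate 1 left out. Also, the 8 lower in TE without glutamine became 4 with Control replicate 2 left out. Among the genes of de novo purine synthesis, the 3 lower with 4EGI-1 became 6 with 4EGI-1 replicate 4 or DMSO replicate 3 left out. Among the E2F family and its partners, the 4 lower with 4EGI-1 became 2 with DMSO replicate 1 left out. Among the G2 and mitosis genes, the 7 higher without methionine became 4 with Control replicate 2 left out. Among the genes of replication stress and p53 targets, the 3 higher with Torin1 became 0 with DMSO replicate 1 or DMSO replicate 3 or Torin1 replicate 3 or Torin1 replicate 4 left out and 1 with DMSO replicate 4 left out.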

How the data were processed

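The authors deposited raw read counts per gene, and the columns of 60 total and polysome RNA libraries were used. Per the submitters' processing notes, the tools named are FastQC, MultiQC, Trimmomatic, STAR, HTSeq and edgeR, with the genome build GRCm39. Their versions, roles and the strand setting are not given in the sources used here. Samples were grouped by their labels, and CPM values were computed from the deposited counts, each library scaled to its total times the TMM factor.

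Genes with low counts were removed with filterByExpr (minimum count 10), and edgeR 4.0.16 (quasi-likelihood F test, Benjamini-Hochberg adjustment over all genes tested, threshold 0.05) was run in R 4.3.3 with limma 3.58.1. The nutrient and drug experiments were fitted separately, over all groups of a fraction, with no replicate block. Translational efficiency is the interaction of fraction and condition over both kinds of library. Standard errors are the log2 fold change divided by the square root of F. DESeq2 1.42.0, RLE scaling, no filter, scaling without ribosomal RNA entries, replicate blocks and leaving out each library were tried as alternatives. The fits were tested on simulated data.

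The member genes and the pathway lists were chosen with earlier results of these data known. For each role the gene with the largest mean change in total RNA is given in every library. Per comparison the 3 largest called rises and falls were listed, and not all of these are named. Further genes named were chosen after their values were seen. Over all genes, same-numbered libraries of different groups deviated together only weakly. The mean correlation of deviations was 0.0353 in nutrient total RNA and 0.0755 in nutrient polysome RNA. It was 0.0776 in drug total RNA and 0.0584 in drug polysome RNA. Between differently numbered libraries it was -0.0176, -0.0378, -0.0272 and -0.0203 in the same order. In drug total RNA, replicate 4 was the highest of its group for 30 of the 40 genes with 4EGI-1 and with halofuginone. It was so for 24 with Torin1 and 8 with DMSO. In nutrient total RNA, replicate 1 was the highest for 28 genes in Control, 21 without glucose, 20 without glutamine and 17 without BCAA. It was so for 11 without methionine and 7 without arginine. In nutrient polysome RNA these numbers for replicate 1 were 24, 24, 15, 30, 9 and 19 in the same order of media. The labels do not say that replicate numbers mark pairs across groups, so they were not used as pairs. Total and polysome libraries with the same number and group come from the same lysate by the labels. No 2 libraries were duplicates. The luciferase spike was not used here.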

Additional observations from a re-analysis of the deposited data

How the results depend on the processing

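When each library was left out in turn, the counts of the 40 genes called ranged from 1 to 8 for total RNA without arginine, 9 to 11 for glutamine against BCAA, 5 to 8 for methionine against BCAA, 12 to 26 for polysome RNA without arginine, and for TE from 1 to 20 without arginine, 11 to 16 without BCAA and 9 to 21 without glucose. In the drug experiment they ranged from 4 to 13 for total RNA with 4EGI-1, 1 to 5 for 4EGI-1 against halofuginone, 8 to 15 for 4EGI-1 against Torin1, and on polysomes from 5 to 10 with Torin1 and 3 to 8 with 4EGI-1. DESeq2 gave 1 call for halofuginone in total RNA and 1 for Torin1 in TE, where edgeR gave 0.

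The labels do not say that replicate numbers pair libraries of different groups. With the number as a block, the count in total RNA was 16 with Torin1 (8 without the block) and 12 for 4EGI-1 against halofuginone (4). On polysomes it was 5 with 4EGI-1 (9). With the lysate as a replicate block, TE without arginine gave 25 calls in place of 16. Over 417 calls of single genes and 4416 alternative values, 0 reversed direction, 436 lost the call and 3980 kept it. The number of libraries, 3 per group, limits the precision of every value.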
